A study of Bos taurus with 4 samples.

Results

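The zinc finger genes whose names start with ZNF, ZFP or ZSCAN were followed through the noncoding transcripts that were assembled at them in 4 skeletal muscles of cattle. A transcript was taken when the gene named in its identifier starts with one of these letters, whatever its class, which gave 149 genes and 454 of 63845 transcripts. Of these genes 141 were named ZNF, 6 ZFP and 2 ZSCAN. The members comprised 367 intronic transcripts, which lie within an intron of the gene, and 87 antisense transcripts, which overlap an exon of the gene on the opposite strand. Intergenic transcripts carry no gene name in the tables, so none of them could be a member. Every value below is that of a noncoding transcript, and the messenger RNAs of these genes were not analysed here.

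The muscles were longissimus thoracis of the back, a muscle at the scapula, gluteus and an intercostal muscle (called scapula and intercostal below), all from female Hereford cattle of 18 months that had no disease in the preceding months and were fattened in 1 feedlot. For each muscle, RNA of 3 animals was pooled in equal amounts into 1 library of total RNA. No muscle had a replicate, so the spread between animals is unknown and differences between muscles are given by size, with counting error only and no test. Levels are in FPKM, the number of fragments divided by the length of the transcript in kilobases and by the library total, and numbers in parentheses give the exact Poisson 95% interval of the recovered reads, on the scale of the value. Reads amplified by PCR are not independent molecules, so these intervals cover counting error only. In pooled tissue, fewer cells of a type and less RNA per cell cannot be told apart.

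Zinc finger proteins hold short loops of amino acids folded around a zinc ion, and in the large C2H2 class arrays of such fingers read DNA sequence. Many C2H2 proteins of mammals also carry a KRAB domain, which recruits the corepressor TRIM28 and the histone methyltransferase SETDB1 to silence chromatin, often at transposable elements, and others carry a SCAN domain for pairing with each other. The gene names followed here also cover proteins of other kinds, such as ZFP36L1, which binds AU-rich messenger RNA and speeds its decay, and ZFPM2, a cofactor of GATA transcription factors.

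The library totals, recovered from the values, lay between 1107493 and 2132255 reads. Reads at zinc finger genes lay between 14660 in gluteus and 25555 in longissimus thoracis. The recovered reads of all listed noncoding transcripts summed to 99.0 to 103% of these totals. Levels are therefore relative to about the listed noncoding reads and not to all RNA of a muscle. The median listed member had 21.5, 13, 13 and 13 reads in longissimus thoracis, scapula, gluteus and intercostal. A single read on a transcript of 500 nucleotides was worth 0.938, 1.32, 1.81 and 1.52 FPKM in the same order. Of 12 skeletal muscle marker genes, 5 had a noncoding transcript (MYF6, MYH1, MYH7, NEB and TTN). Their summed reads came to 17568, 35302, 42346 and 42689 reads per 1000000 of the library total (RPM), lowest in longissimus thoracis. Introns of NEB had by far the highest levels among them, up to 14861 FPKM in intercostal. By the rule given below 9 of the 16 transcripts were lower and 2 higher in longissimus thoracis. The transcript opposite MYF6 had 604, 380, 488 and 652 FPKM in the same order, and that of TTN 112, 144, 73.3 and 43.7, so neither was lowest in longissimus thoracis. No transcript was listed at the markers of adipocytes (4 genes) or of erythroid cells (3 genes). The labels do not say whether the libraries kept strand, so an antisense value may include reads of the gene's own messenger RNA, and an intronic value may include reads of its unspliced transcript.

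The listed members numbered 230 in longissimus thoracis, 289 in scapula, 177 in gluteus and 222 in intercostal. In that order 44.7, 60.5, 31.1 and 42.0% of the intronic members were listed, against 46.5, 58.0, 28.1 and 38.6% of all intronic transcripts. For antisense members the shares were 75.9, 77.0, 72.4 and 78.2%, against 72.1, 83.9, 74.8 and 77.1%. All 4 muscles listed 86 members, and 218 were listed in a single muscle. The classes differed in this. Of the antisense members 47, or 54.0%, were listed in every muscle, beside 56.4% of all 2516 antisense transcripts. Of the intronic members 39, or 10.6%, were listed in every muscle, beside 6.87% of all 26452 intronic transcripts. A single muscle listed 55.0% of the intronic members, the same as the 55.0% of all intronic transcripts. For antisense transcripts these shares were 18.4% of the members and 18.5% of all. At the level of the gene, 73 of 149 zinc finger genes, or 49.0%, had at least 1 transcript in each of the 4 muscles, not always the same one, compared with 42.4% of the 6589 genes named in the tables. This comparison pools the classes, and their mix differs. Antisense transcripts were 87 of the 454 members, while the tables held 2516 antisense and 26452 intronic transcripts.

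Antisense transcripts of zinc finger genes stood lower than antisense transcripts as a whole. Their median was 35.3 FPKM in longissimus thoracis, 36.8 FPKM in scapula, 46.4 FPKM in gluteus and 42.1 FPKM in intercostal, against 55.2, 50.3, 61.3 and 60.3 FPKM for all antisense transcripts in the same order. Intronic members lay nearer to their class, with medians of 30.0, 23.6, 19.9 and 22.3 FPKM against 30.8, 25.8, 23.7 and 25.7. Both classes of member were below their class median in every muscle. The typical recovered length was 514 nucleotides for antisense and 310 for intronic members, against 597 and 268 for their classes, where each length is the smallest that the values allow.

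The transcript opposite ZNF106 was the most abundant member in every muscle. ZNF106 encodes a zinc finger protein that binds RNA and is needed in mice for the upkeep of motor neurons and muscle. Antisense to it, the transcript had 1350.2 (1326 to 1375) FPKM in longissimus thoracis, 2252 (2214 to 2289.8) in scapula, 1808 (1768 to 1848) in gluteus and 2981 (2935 to 3028) in intercostal. The order ran from longissimus thoracis through gluteus and scapula to intercostal, and no pair of these intervals overlapped. This transcript alone held 45.2% (Wilson 95% interval 44.6 to 45.8) of all reads at zinc finger genes in longissimus thoracis, 60.4% (59.8 to 61.0) in scapula, 54.8% (54.0 to 55.6) in gluteus and 66.2% (65.6 to 66.8) in intercostal. With it, the members summed to 11985 RPM in longissimus thoracis, 14969 RPM in scapula, 13237 RPM in gluteus and 18084 RPM in intercostal. Without it, a setting added after its values were seen, the sums were 6564, 5928, 5979 and 6114 RPM in the same order. The muscles thus differed by far less in the sum over the other members than in the sum with ZNF106, and the order changed, with longissimus thoracis first instead of last.

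Of the next antisense transcripts in mean level, ZNF664, with 2 such transcripts, stood highest in gluteus. The more abundant had 254 (229 to 279.8) FPKM in longissimus thoracis, 323 (290.1 to 358) in scapula, 537 (488 to 590.1) in gluteus and 318 (284 to 356) in intercostal. The other gave 52.6 FPKM in longissimus thoracis, 69.2 in scapula, 95.2 in gluteus and 78.1 in intercostal, with gluteus again on top. ZNF329 also had 2. The first had 105 (82.3 to 131) FPKM in longissimus thoracis, 303 (257 to 355) in scapula, 156 (118 to 201) in gluteus and 413 (355 to 477) in intercostal, so that longissimus thoracis and gluteus lay below the scapula and intercostals. The second, TCONS_00089616, had 18.0 FPKM in longissimus thoracis, 80.5 in scapula, 85.9 in gluteus and 87.4 in intercostal, and here longissimus thoracis alone was low.

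ZNF24, a SCAN domain protein that represses the gene of vascular endothelial growth factor, was highest in longissimus thoracis. Its main antisense transcript, of 5105 nucleotides and with 3419 reads there, had 314 (304 to 325) FPKM in longissimus thoracis, 169.9 (161 to 179) in scapula, 218 (206 to 231) in gluteus and 225 (214 to 236) in intercostal. ZNF207 encodes a spindle protein that loads the checkpoint protein BUB3 at kinetochores. The transcript opposite it varied least of the 10 highest, with 193 (179 to 207) FPKM in longissimus thoracis, 127 (114 to 140.4) in scapula, 170.1 (153 to 189) in gluteus and 147 (132 to 163) in intercostal. The transcript opposite ZNF280D spread more widely, from 38.1 (29.7 to 48.3) FPKM in scapula to 181 (165 to 198) in longissimus thoracis, with 104 (87.5 to 123) in gluteus and 56.4 (45.3 to 69.4) in intercostal. Longissimus thoracis stood clear of the other 3 muscles for both ZNF24 and ZNF280D.

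The remaining 4 of the 10 were opposite ZNF705A, ZNF606, ZNF140 and ZNF746. ZNF705A had 131 FPKM in longissimus thoracis, 70.8 in scapula, 99.3 in gluteus and 116 in intercostal. ZNF606, a KRAB zinc finger gene, split the muscles into pairs, with 93.3 FPKM in longissimus thoracis and 99.9 in intercostal against 61.5 in scapula and 61.2 in gluteus. ZNF140, another KRAB zinc finger gene, was at 111 FPKM in longissimus thoracis and between 56.8 and 82.0 in the others. ZNF746 encodes PARIS, a repressor of the coactivator gene PPARGC1A and a substrate of parkin. The transcript opposite it ran from 23.7 (10.8 to 45.0) FPKM in longissimus thoracis to 137 (90.3 to 199) in gluteus, on 9 and 27 reads, with 63.2 (36.8 to 101) in scapula and 72.4 (42.2 to 116) in intercostal between them.

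**Figure D1:**
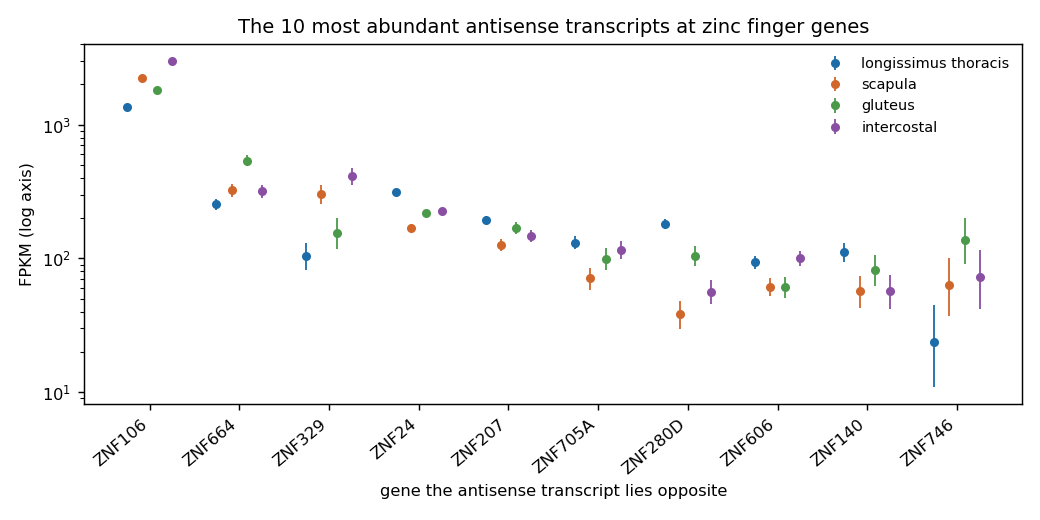
Levels of the 10 antisense transcripts of highest mean level at zinc finger genes: the vertical axis is FPKM on a log axis, the points are the 4 muscles (1 pooled library each) and the bars are exact Poisson 95% intervals. ZNF106 lies between 1350.2 and 2981 FPKM, above the other 9 in every muscle, and ZNF746 has the widest intervals.

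Several antisense transcripts were nearly missing from longissimus thoracis. The transcript opposite ZNF572 had 2 reads there, 1.35 (0.164 to 4.89) FPKM, against 59.2 (45.4 to 75.9) in scapula, 33.9 (22.1 to 49.6) in gluteus and 65.7 (50.1 to 84.5) in intercostal. That opposite ZNF25 had 1 read there, 0.912 (0.0231 to 5.08) FPKM, with 12.9 (6.17 to 23.7) in scapula, 86.1 (63.7 to 114) in gluteus and 47.2 (32.3 to 66.7) in intercostal. ZFP57 is the KRAB zinc finger protein that keeps methylation at imprinted regions. The transcript opposite it was missing from longissimus thoracis and reached 69.4 (46.8 to 99.0), 91.6 (61.3 to 131) and 61.0 (38.7 to 91.5) FPKM in scapula, gluteus and intercostal. Listed in those 3 muscles and not in longissimus thoracis were 9 antisense members, or 10.3%, beside 8.55% of all antisense transcripts. In the opposite direction, 11, or 12.6%, were listed in longissimus thoracis alone, beside 6.44% of all antisense transcripts. At ZNF24, 7 antisense transcripts were assembled, and 4 of those listed for longissimus thoracis alone lay there, at 44.9, 35.2, 30.8 and 29.7 FPKM.

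The 2 antisense transcripts of ZNF283 were low in scapula. The first had 71.7 (55.6 to 91.1) FPKM in longissimus thoracis, 1.51 (0.0382 to 8.41) in scapula, 35.0 (20.4 to 56.1) in gluteus and 3.46 (0.419 to 12.5) in intercostal, which made it at once the member with the highest ratio among those listed in all 4 muscles in longissimus thoracis and in gluteus, and the lowest in intercostal except for ZNF383. The second had 50.2 (35.8 to 68.3) FPKM in longissimus thoracis, 1.77 (0.0448 to 9.85) in scapula, 43.5 (25.8 to 68.7) in gluteus and 28.4 (15.5 to 47.6) in intercostal, so that the pair shared the low scapula value, on 1 read each, and differed in intercostal. ZNF10, also called KOX1, is the source of the KRAB domain used in engineered repressors. The transcript opposite it was highest in scapula, at 83.3 (62.2 to 109) FPKM, with 17.0 (9.53 to 28.1) in longissimus thoracis, 13.1 (4.81 to 28.6) in gluteus and 34.9 (21.0 to 54.5) in intercostal. That opposite ZNF79 was also highest there, at 40.9 (20.4 to 73.1) FPKM from 11 reads, but its interval overlapped that of longissimus thoracis, 18.4 (7.42 to 38.0). The transcript opposite ZNF646 was listed for the scapula and intercostal muscles only, at 46.8 (33.3 to 64.0) and 42.7 (29.0 to 60.6) FPKM. The transcript opposite ZNF41, an X-linked KRAB zinc finger gene, was low throughout, with 20.9 (12.6 to 32.7) FPKM in intercostal and at most 5.76 (2.11 to 12.5) elsewhere.

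Antisense members listed in every muscle varied more between muscles than their class. The ratio of the highest to the lowest muscle had a median of 4.74 over the 47 of them, against 2.95 over all 1420 antisense transcripts listed in every muscle. Within 2-fold lay 6, or 12.8%, of the members and 26.0% of the class. The members also had fewer reads, with a median of 35 against 94 for listed antisense transcripts in longissimus thoracis. Among those with 20 or more reads in every library, a limit added after seeing the data, the medians were 2.54 for 27 members and 2.35 for 1037 antisense transcripts, and 22.2% and 35.4% lay within 2-fold. That limit leaves out transcripts that are low in any muscle, so it narrows the spread by itself, and the part of depth in the wider spread of the members was not tested.

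Transcripts of both classes together were spread unevenly over the zinc finger genes. A single transcript, intronic or antisense, was found at 78 of the 149 genes, while the 10 genes with the most held 165 of the 454. ZNF462, a developmental regulator that binds chromatin, had 27 transcripts. ZFPM2, also called FOG2, a GATA4 cofactor of heart development, had 24. ZNF644, a partner of the histone H3 lysine methyltransferases G9a and GLP, had 23, ZNF280D 16 and ZNF148, a transcription factor that binds GC-rich DNA, 14. All of these were intronic except 1 at ZNF280D. ZNF24 equalled ZNF148 in number with 7 intronic and 7 antisense transcripts.

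**Figure D2:**
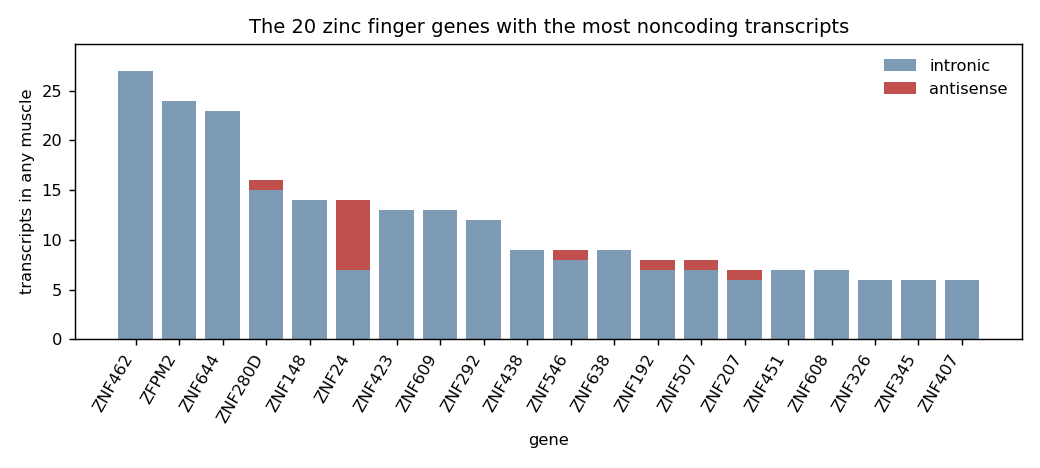
Number of noncoding transcripts listed in any muscle at the 20 zinc finger genes with the most, as stacked bars of intronic (blue) and antisense (red) transcripts. ZNF462, ZFPM2 and ZNF644 hold 27, 24 and 23 transcripts, and ZNF24 is the gene with 7 antisense ones.

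Intronic members of highest mean level were steadier in some genes than in others. One of 7 at ZNF192, a gene of the KRAB and SCAN family now named ZKSCAN8, was the highest, with 64.8 (56.9 to 73.4) FPKM in longissimus thoracis, 65.2 (55.9 to 75.7) in scapula, 57.0 (46.9 to 68.6) in gluteus and 70.5 (60.2 to 82.2) in intercostal, and all 4 intervals overlapped. An intronic transcript of ZNF280D also kept to a narrow band, from 27.6 FPKM in intercostal to 41.8 in longissimus thoracis. ZNF207 had one that stood at 89.5 (67.2 to 117) FPKM in longissimus thoracis and 69.7 (45.5 to 102) in intercostal against 23.4 (11.2 to 43.0) in scapula and 19.1 (7.03 to 41.7) in gluteus. An intronic transcript of ZNF345 was highest in scapula, at 111 (93.9 to 129.6) FPKM, and had 2 reads in gluteus, 1.96 (0.238 to 7.09) FPKM, with 26.0 (19.4 to 34.2) in longissimus thoracis and 51.9 (39.9 to 66.4) in intercostal. The intronic transcript of ZNF551 was likewise highest in scapula, at 84.1 FPKM, and lowest in intercostal, at 9.98. ZNF326 encodes a subunit of the DBIRD complex, which couples elongation to splicing. The most abundant of its 6 intronic transcripts was not listed for intercostal and had 46.5 FPKM in longissimus thoracis, 88.7 in scapula and 58.1 in gluteus. The highest ones at ZNF710 and ZNF266 were each missing from a muscle, that of ZNF710 from intercostal with 97.5 FPKM in gluteus as its highest value, and that of ZNF266 from gluteus with 70.6 FPKM in longissimus thoracis.

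Reads were then summed over all noncoding transcripts of a gene, which is less sensitive to how an intron was divided into transcripts. The sums use the smallest reads that the values allow. They may therefore be too low, mainly at transcripts listed in few muscles, and not equally so in each muscle. The intervals do not cover this. ZNF462 came to 141 (126 to 158) RPM in longissimus thoracis, 241 (217 to 267) in scapula, 62.3 (48.5 to 78.8) in gluteus and 46.3 (35.4 to 59.4) in intercostal, so that scapula was highest and gluteus and intercostal lay together at the bottom. ZFPM2 had the same muscle on top, with 72.7 (61.7 to 85.1) RPM in longissimus thoracis, 166 (146 to 188) in scapula, 17.2 (10.3 to 26.8) in gluteus and 69.8 (56.2 to 85.6) in intercostal. ZNF644 varied less, with 127 (112 to 143) RPM in longissimus thoracis, 99.2 (84.0 to 116) in scapula, 142 (120.5 to 166) in gluteus and 135 (116 to 156) in intercostal, and its single transcripts varied more: TCONS_00180984 had 99.6 (75.7 to 129) FPKM in longissimus thoracis and 94.4 (65.4 to 132) in intercostal and was missing elsewhere, and TCONS_00174653 reached 126 (104 to 151) FPKM in longissimus thoracis but at most 34.9 (20.3 to 55.9) elsewhere. ZNF280D was highest in longissimus thoracis, with 387 (361 to 415) RPM in longissimus thoracis, 116 (99.2 to 134) in scapula, 212 (186 to 241) in gluteus and 139.5 (120.1 to 161) in intercostal, and so was ZNF24, with 1648 (1594 to 1703) RPM in longissimus thoracis, 921 (874 to 971) in scapula, 1136 (1074 to 1200.5) in gluteus and 1188 (1129 to 1248) in intercostal.

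ZNF148 had 74.1 (63.0 to 86.6) RPM in longissimus thoracis, 58.9 (47.3 to 72.4) in scapula, 13.5 (7.58 to 22.3) in gluteus and 28.1 (19.8 to 38.7) in intercostal, higher in longissimus thoracis and scapula than in the other two. ZNF609, known for a circular RNA that affects the growth of myoblasts, followed the same division with 71.3 (60.4 to 83.6) RPM in longissimus thoracis, 86.0 (71.8 to 102) in scapula, 2.71 (0.559 to 7.92) in gluteus and 26.5 (18.5 to 36.9) in intercostal. The values of these intronic transcripts give no measure of that circular RNA. ZNF292 was near absent from intercostal, with 1 read there, 0.758 (0.0192 to 4.23) RPM, against 38.9, 54.2 and 46.0 RPM in longissimus thoracis, scapula and gluteus. Among the 34 zinc finger genes with 20 or more reads in every library, the median ratio of the highest to the lowest muscle was 2.49, next to 2.50 for the 1622 genes of the tables that met the same limit, which leaves out genes that are low in any muscle. Longissimus thoracis was the lowest muscle for 13 of these zinc finger genes and gluteus for 4, or 38.2% and 11.8%, beside 28.2% and 26.3% of all genes. Gene sums pool the classes, whose mix differs between members and all transcripts. Over single transcripts listed in every muscle, longissimus thoracis was lowest for 33.4% of all antisense and 22.4% of all intronic ones. Gluteus was lowest for 17.7% and 33.0% in the same order. The part of the class mix was not tested.

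**Figure D3:**
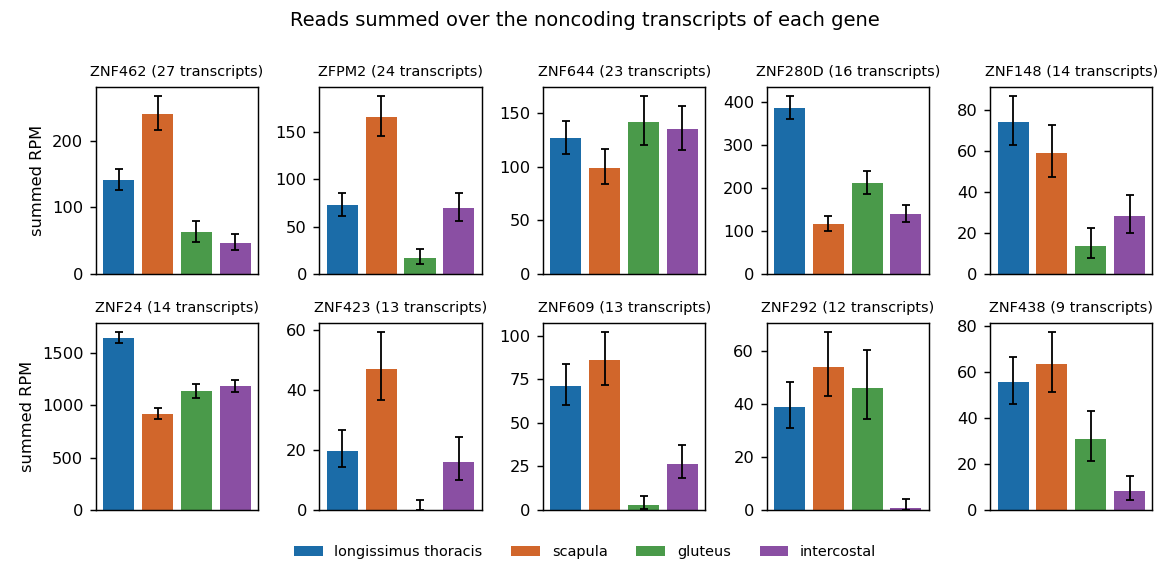
Reads per 1000000 of the library total (RPM) summed over all noncoding transcripts of the 10 zinc finger genes with the most transcripts, 1 panel per gene with its own axis from 0; bars are the 4 muscles and whiskers exact Poisson 95% intervals. The scapula muscle is highest for ZNF462 and ZFPM2, longissimus thoracis for ZNF280D and ZNF24, and ZNF423 has no read in gluteus.

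Zinc finger genes known from fat cells and progenitors were examined as a group. ZNF423, which commits precursors to the adipocyte lineage, had 13 intronic transcripts, of which 12 were listed in a single muscle. Its sum was highest in scapula, at 47.0 (36.7 to 59.2) RPM, with 19.7 (14.2 to 26.6) in longissimus thoracis and 15.9 (9.86 to 24.3) in intercostal, and no transcript of it was listed for gluteus. ZNF521, an antagonist of EBF1 in immature cells, had 5 transcripts and 19.2 (13.8 to 26.1) RPM in longissimus thoracis, 22.5 (15.6 to 31.4) in scapula, 4.51 (1.47 to 10.5) in gluteus and 12.1 (6.94 to 19.7) in intercostal. ZNF638, a nuclear protein that promotes adipocyte differentiation, was highest in longissimus thoracis, with 83.5 (71.7 to 96.7) RPM in longissimus thoracis, 50.3 (39.6 to 62.9) in scapula, 23.5 (15.3 to 34.4) in gluteus and 22.8 (15.3 to 32.5) in intercostal.

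Single transcripts of ZNF638 did not share that order. TCONS_00026242 reached 88.4 (66.0 to 116) FPKM in longissimus thoracis, with 7.19 (1.48 to 21.0) in scapula, 16.4 (5.31 to 38.2) in gluteus and 8.24 (1.70 to 24.1) in intercostal, while TCONS_00030285 had 94.2 (67.3 to 128) FPKM in scapula against 8.34 (2.71 to 19.5) in longissimus thoracis and 21.6 (9.32 to 42.5) in intercostal, and was not listed for gluteus. ZNF467, which favours adipocyte over bone cell fate, had 1 intronic transcript, with 27.3 (15.3 to 45.1) FPKM in intercostal and 1 read, 1.59 (0.0403 to 8.86) FPKM, in scapula. ZFP36L1 had 1, listed for scapula alone at 28.1 (15.7 to 46.4) FPKM. No member was found at ZFP36, ZFP36L2, ZFPM1 or under the names ZFP106 and ZFP467. Marker genes of fibroblasts also summed highest in scapula, where ZFPM2, ZNF462 and ZNF423 did. Of the fibroblast genes 3 of 4 had transcripts and COL1A2 had none. The sums were 1747, 8495, 1487 and 3896 RPM in longissimus thoracis, scapula, gluteus and intercostal, mostly from the transcript opposite COL3A1. Of the 6 transcripts 3 were higher in scapula by the rule given below, as were 45.1% of all intronic and antisense transcripts. That of COL1A1 was listed for longissimus thoracis alone. At PDGFRA, TCONS_00215785 was highest in gluteus, at 58.7 FPKM against 33.4 in scapula, and so was TCONS_00215786, at 13.9 against 2.04. TCONS_00209772 of PDGFRA was listed for longissimus thoracis alone and TCONS_00212528 for scapula alone. Intronic transcripts as a whole also summed highest in scapula, at 203514 RPM against 177177, 141250 and 176835 in longissimus thoracis, gluteus and intercostal. The part of fibroblasts in the zinc finger values was not tested.

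**Figure D4:**
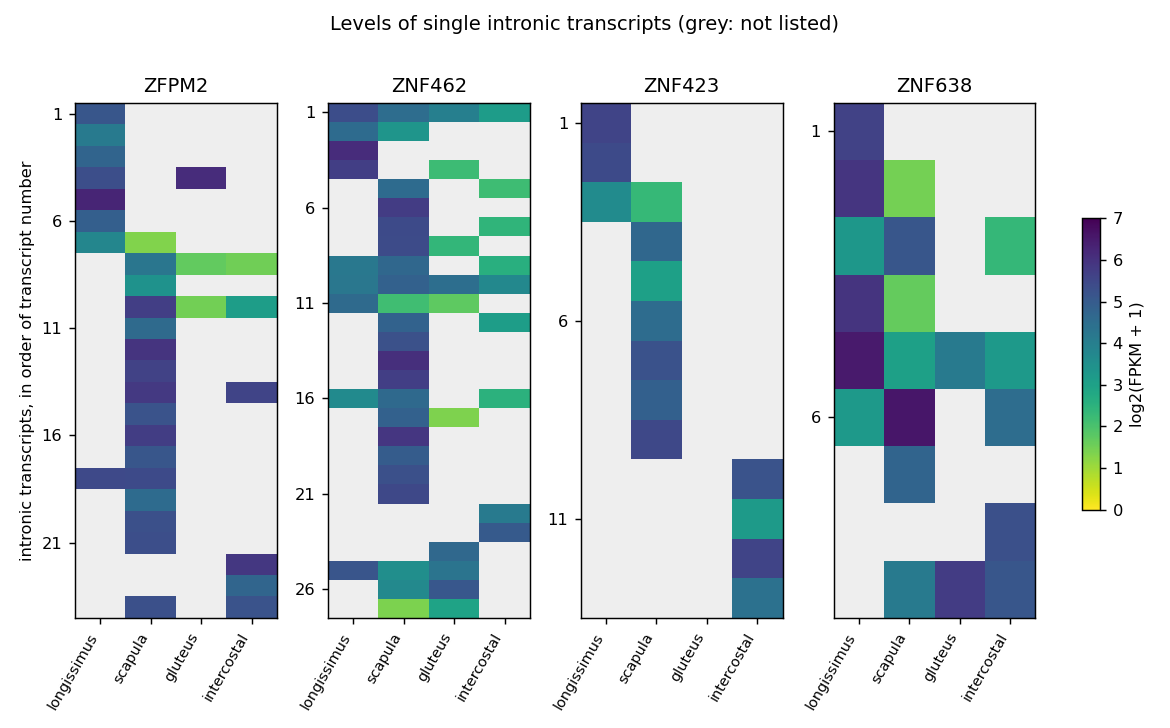
Level of each intronic transcript of ZFPM2, ZNF462, ZNF423 and ZNF638 (rows, in order of transcript number) in the 4 muscles (columns), as log2(FPKM + 1) in colour, with grey where a transcript is not listed. Most rows of ZFPM2 and ZNF423 are filled in 1 column only, and the 16 ZFPM2 transcripts and 22 ZNF462 transcripts listed for scapula make it the fullest column of these 2 genes.

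Each muscle was then set against the other 3. A member was called higher or lower where its FPKM + 1 was 2-fold or more above or below the median of the other 3 muscles + 1, a log2 ratio of 1 or more in size that understates differences of low transcripts. A transcript that is not listed was entered as 0, and 1 FPKM or more was required in at least 1 library, which all 454 members met. No call is a test. In longissimus thoracis 117 of 367 intronic members were higher, or 31.9%, where 38.4% of all intronic transcripts were, and 71 were lower, or 19.3%, against 20.3%. Of 87 antisense members 25 were higher and 32 lower, or 28.7% and 36.8%, against 21.8% and 30.8% of all antisense transcripts. The highest ratios of longissimus thoracis belonged to intronic transcripts of ZNF565, at 118 (91.2 to 149) FPKM, ZNF644 (TCONS_00180984) and ZNF148, at 90.3 (66.1 to 120.4) FPKM, and those of ZNF565 and ZNF148 were listed there alone. Its lowest ratios belonged to the transcript opposite ZFP57, to an intronic transcript of ZFPM2 with 56.6 FPKM in scapula and 46.6 in intercostal, and to the transcript opposite ZNF646.

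In scapula 170 intronic members were higher and 37 lower, or 46.3% and 10.1%, against 46.7% and 11.5% of all intronic transcripts. Among antisense members 19 were higher and 16 lower, or 21.8% and 18.4%, against 27.5% and 14%. The scapula library also listed the most transcripts, 58.0% of all intronic ones and 60.5% of the intronic members. Its highest ratios were at introns of ZNF462, at 65.6 (34.9 to 112) FPKM from 13 reads, of ZNF618, at 63.9 (41.8 to 93.7) FPKM, and of ZNF546, at 63.9 (34.9 to 107) FPKM with 31.4 (11.5 to 68.3) in intercostal. Its lowest were at introns of ZNF644, of ZFPM2 (TCONS_00053241), listed for longissimus thoracis at 39.3 (23.6 to 61.3) FPKM and for gluteus at 67.6 (39.4 to 108), and of ZNF280D, listed for gluteus at 35.5 FPKM and intercostal at 43.7.

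In gluteus 69 intronic members were higher and 84 lower, or 18.8% and 22.9%, against 17.9% and 26.2% of all intronic transcripts. Of the antisense members 16 were higher and 16 lower, each 18.4%, against 20.6% and 18.6%. Introns of ZNF774, at 92.0 (57.0 to 141) FPKM, of ZNF546, at 88.7 (61.4 to 124) with 28.5 (15.2 to 48.7) in intercostal, and of ZNF644, at 77.3 (46.5 to 121), had the highest ratios. Introns of ZNF644 and ZFPM2 and the transcript opposite ZNF646, none of them listed for gluteus and all described above, had the lowest. Among members listed in every muscle, gluteus was lowest against the others at introns of ZNF345 and ZNF266, the latter with 1 read, 2.85 (0.0721 to 15.9) FPKM, against 38.5 in longissimus thoracis, 54.2 in scapula and 26.3 in intercostal.

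In intercostal 100 intronic members were higher and 67 lower, or 27.2% and 18.3%, against 27.5% and 19.5%. For antisense members the counts were 19 and 15, or 21.8% and 17.2%, against 20.1% and 16.9%. After TCONS_00180984 of ZNF644, the highest ratios were at introns of ZNF395, a gene induced by hypoxia, at 82.8 (44.1 to 142) FPKM from 13 reads, and of ZNF217, an oncogene of breast tumours, at 77.9 (49.4 to 117) FPKM, both listed for intercostal alone. The lowest were at introns of ZNF326, of ZFPM2 (TCONS_00055649), with 42.8 FPKM in longissimus thoracis and 42.3 in scapula, and of ZNF133, a KRAB zinc finger gene, with 71.9 (52.2 to 96.5) and 41.5 (24.6 to 65.6) FPKM in the same 2 muscles. Among members listed in every muscle, an intron of ZNF383 was lowest there, with 1 read, 1.08 (0.0274 to 6.02) FPKM, against 24.7 in longissimus thoracis, 5.65 in scapula and 27.0 in gluteus. An intron of ZNF438 was among the highest ratios there, at 15.3 (7.35 to 28.2) FPKM, but 10.4 (5.20 to 18.6) in longissimus thoracis overlapped it.

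Over both classes, 142 members were higher and 103 lower in longissimus thoracis, 189 and 53 in scapula, 85 and 100 in gluteus, and 119 and 82 in intercostal. Of all intronic and antisense transcripts 37, 45.1, 18.2 and 26.8% were higher and 21.2, 11.7, 25.5 and 19.3% lower in the same order. Such pooled shares also carry the different mix of classes among members and among all transcripts. These splits depended on the reference: against the mean of log2(FPKM + 1) of the other 3 muscles, the counts were 151 higher and 241 lower in longissimus thoracis, 182 higher and 175 lower in scapula, 86 higher and 284 lower in gluteus and 125 higher and 239 lower in intercostal. Among transcripts passing the filter, and with each class taken by itself, the widest gap between members and class was for antisense transcripts higher in longissimus thoracis, 28.7% against 21.8%. These were 25 members, and 4 of them were the transcripts at ZNF24 listed for longissimus thoracis alone. The gap was nearly as wide, in the other direction, for intronic transcripts higher there, 31.9% against 38.4%. Among the 86 members listed in every muscle, 18 were higher (20.9% against 24.9%) and 24 lower (27.9% against 23.6%) in longissimus thoracis, 16 were higher (18.6% against 19.8%) and 19 lower (22.1% against 18.4%) in scapula, 15 were higher (17.4% against 16.7%) and 16 lower (18.6% against 24.8%) in gluteus and 12 were higher (14.0% against 16.6%) and 15 lower (17.4% against 20.8%) in intercostal, the percentages being those of all intronic and antisense transcripts listed in every muscle. Among the 47 antisense members listed in every muscle, 16 were lower in longissimus thoracis, or 34.0%, against 25.6% of the antisense transcripts listed in every muscle, and their median log2 ratio there was -0.45 against -0.03. Longissimus thoracis was the lowest muscle for 21 of these 47, or 44.7%, compared with 33.4% of the class. Beside the sum of the muscle markers, in which MYF6 and TTN did not follow, that of endothelium markers was also lowest there. Of the latter, 2 of 4 genes had transcripts (CD34 and CDH5, not PECAM1 or VWF). Their sums were 16.9, 362, 267 and 240.4 RPM in longissimus thoracis, scapula, gluteus and intercostal. Their part in the zinc finger values was not tested.

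**Figure D5:**
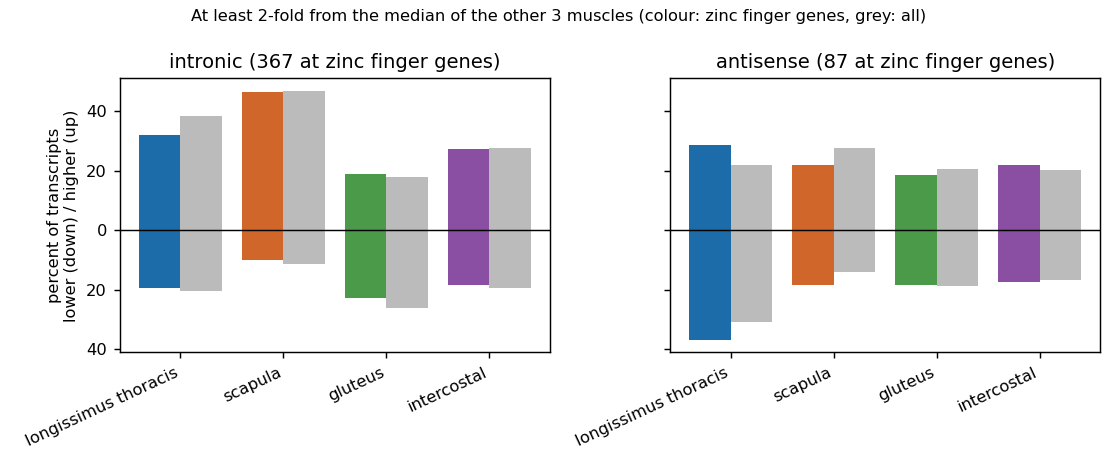
Percent of intronic (left) and antisense (right) transcripts at least 2-fold above (up) or below (down) the median of the other 3 muscles, for zinc finger genes (coloured by muscle) and for all transcripts of the class (grey). The widest gap between a coloured bar and its grey one is for antisense transcripts higher in longissimus thoracis, 28.7% against 21.8%, where 4 of the 25 members lie at ZNF24.

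Both classes of transcript were found at 26 zinc finger genes. In 5 of them the highest antisense transcript stood above the highest intronic one in all 4 muscles, namely ZNF207, ZNF24, ZNF354A, ZNF746 and ZNF79. At ZNF192 the highest intronic transcript stood above the antisense one in every muscle, and at ZNF782 both classes were listed for intercostal alone. For ZNF192 the antisense transcript reached 15.4 FPKM in longissimus thoracis, against 64.8 for its highest intronic transcript. These genes were taken after their values were seen.

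Zinc finger genes often lie in tandem clusters. Gene order was taken from RefSeq (ARS-UCD2.0), where 141 member genes were found by symbol and 4 by an older name, and 66 of them had another gene of these names among the 2 nearest protein-coding genes on either side. These neighbouring genes had 2.38 transcripts each, of which 30.6% were antisense, against 3.57 and 12.8% for the 79 genes with no such neighbour. Unnamed loci and zinc finger genes of other names did not count as neighbours, so some of the 79 may lie in clusters. Of the 48 antisense transcripts at neighbouring genes 20, or 41.7%, were listed in every muscle, compared with 24 of 36, or 66.7%, at the others. The median over those transcripts of the mean level was 18.7 FPKM at neighbouring genes and 41.3 FPKM at the others, a transcript that is not listed counting as 0. For intronic transcripts the shares listed in every muscle ran the other way, at 14.7% and 8.13%. Genes of a cluster can resemble each other in sequence, and reads may be divided among such genes. The part of this in the values was not tested. Transcripts of 1 gene share its locus and are not independent of each other.

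The partners of KRAB repression were measured in the same way. Of 19 names 11 had transcripts, 28 in all and 27 of them intronic, and none was found at TRIM28. By the same rule 13 were higher and 2 lower in longissimus thoracis, 11 and 4 in scapula, 4 and 6 in gluteus, and 7 and 3 in intercostal. Of all intronic transcripts 38.4, 46.7, 17.9 and 27.5% were higher and 20.3, 11.5, 26.2 and 19.5% lower in the same order. The only one listed in every muscle lay opposite MPHOSPH8, a subunit of the HUSH silencing complex, at 23.1 FPKM in longissimus thoracis, 20.9 in scapula, 1.59 in gluteus and 66.6 in intercostal. Of the other zinc finger families, ZBTB genes had 267 transcripts at 22 genes, with 48 listed in every muscle. KLF genes had 47 at 7 genes, ZC3H genes 39 at 12, PRDM genes 14 at 5 and ZMYM genes 11 at 4. Of the 267 ZBTB transcripts 102 stood higher and 66 lower in longissimus thoracis, 129 and 38 in scapula, 53 and 86 in gluteus, and 66 and 66 in intercostal. Of the 47 KLF transcripts 13 stood higher and 9 lower in longissimus thoracis, 27 and 2 in scapula, 6 and 12 in gluteus, and 10 and 8 in intercostal. Most of the ZBTB transcripts lay at ZBTB16 and ZBTB20, and most of the KLF ones at KLF12 and KLF7. These counts therefore describe mainly those genes and not the families. Intronic were 255 of the ZBTB and 42 of the KLF transcripts. In the same order of muscles 37, 45.1, 18.2 and 26.8% of all intronic and antisense transcripts were higher and 21.2, 11.7, 25.5 and 19.3% lower.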

How the data were processed

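The authors deposited 1 table per muscle with 1 FPKM value for each noncoding transcript, and only values above 0 are listed. TopHat2 (2.0.9), Cufflinks (2.1.1) and the build UMD3.1 are named per the submitters' processing notes, which state neither their role nor their order. How candidates were filtered, which annotation was used and whether strand was kept is not stated in these notes or labels. Neither coordinates nor sequences were analysed here, so the planned grouping of proteins by finger, KRAB and SCAN motifs was not made.

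Since FPKM is reads over length and library total, a search recovered, per library, the total that turns every value into whole reads and 1 whole length per transcript, within a relative error of 1e-11. The smallest reads and lengths possible were kept, so true counts may be higher and true intervals narrower. Sums of reads in RPM may be too low for the same reason, and unequally between muscles. The recovered reads summed to 99.0, 100.0, 103 and 101% of the totals in longissimus thoracis, scapula, gluteus and intercostal, and transcripts may share reads. With 1 library per muscle no test was made. The scripts (Python 3.11.15, pandas 2.3.3, SciPy 1.17.1) were tested on simulated data.

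Members, lists and rules were chosen with earlier results of these data known. Named were the 10 antisense and the 10 intronic members of highest mean, per muscle the 3 highest and 3 lowest ratios and the 2 highest and 2 lowest among members listed in all 4 muscles, the 5 genes with the most transcripts, and 12 genes fixed by name. The second antisense transcripts of ZNF664 and ZNF329, those of ZNF24 listed for longissimus thoracis alone, ZNF609 and ZNF292 were added after their values were seen. Alternatives were other pseudocounts, filters, scaling and references.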

Additional observations from a re-analysis of the deposited data

How the results depend on the processing

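The balance of higher and lower calls turned over in longissimus thoracis and intercostal against the mean log2 of the other 3, where lower calls became the more frequent, and in gluteus with a pseudocount of 10, where higher calls did. With a pseudocount of 10, members lower numbered 52 in longissimus thoracis, 33 in scapula, 58 in gluteus and 41 in intercostal, and among members listed in every muscle 15 were lower in longissimus thoracis, 7 higher in scapula, 9 higher and 10 lower in gluteus, and 8 lower in intercostal. Against the mean log2 of the other 3, members lower numbered 241, 175, 284 and 239 in longissimus thoracis, scapula, gluteus and intercostal. In the same order the higher share of all calls was 58.0, 78.1, 45.9 and 59.2% in the rule used, 38.5, 51.0, 23.2 and 34.3% against that mean and 70.6, 81.5, 51.7 and 68.7% with a pseudocount of 10. A transcript missing from a muscle that one other muscle lists has a median of the other 3 of 0 but a mean above it, so that mean adds lower calls by construction. Median-ratio scaling, a pseudocount of 0.1 and both other filters moved no count by over 1.5 times. Listed in all 4 muscles were 44 members at 10 FPKM or more and 55 with 1 transcript per gene, instead of 86, and listed in 1 muscle were 47 with 1 transcript per gene, instead of 218. Medians of intronic members at 10 FPKM or more were 28.1 FPKM in scapula, 30.4 in gluteus and 31.3 in intercostal. The log2 ratios of the named transcripts kept their sign: of 40, 25 moved beyond their counting interval with a pseudocount of 0.1, 29 with 10 and 8 against the mean. No paired analysis was possible because each muscle had 1 library, and for the same reason no library could be left out. Between 54 and 107 listed members per library had under 10 recovered reads. Recovered reads are the smallest that the values allow, so fewer members may truly rest on so few. Where reads were that few, a muscle where a transcript is missing cannot be told from one where it was too rare to be read.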

Other observations

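Transcript numbers of a gene fell into blocks by muscle. Of the 24 intronic transcripts of ZFPM2 in order of number, the first 7 were listed for longissimus thoracis, the next 14 for scapula and the last 3 for intercostal, some of them also for another muscle. Over all zinc finger genes, 218 members were listed in a single muscle and formed 125 pairs that follow each other in number at the same gene. In 75 of these pairs, or 60%, both were listed for the same muscle, beside 65.8% of 10148 such pairs over all genes. The cause was not tested.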
